A study of Mus musculus with 2 samples.

Results

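The genes described here are the neurotrophin ligands Bdnf, Ntf3 and Ntf5 and the neurotrophin receptor genes Ntrk2, Ntrk3 and Ngfr, chosen by name, 6 of 21670 protein-coding genes on the autosomes and the X chromosome. Neurotrophins are secreted growth factors that are made as proforms, cut by proteases and released from neurons and other cells. Bdnf and Ntf5 encode ligands of the receptor tyrosine kinase TrkB (Ntrk2), and Ntf3 encodes neurotrophin-3, the main ligand of TrkC (Ntrk3). Ngfr encodes p75, a receptor without kinase activity that binds all neurotrophins and, with sortilin family proteins, their proforms. In the developing cerebellum BDNF is known for its part in the migration and survival of granule cells, and neurotrophin-3 and TrkC for theirs in granule and Purkinje cells. Bdnf is known for a series of separate promoters, each with its own 5′ exon joined to a shared coding exon.

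Open chromatin was measured by DNase-seq, in which DNase I cuts DNA where it is not wrapped in nucleosomes, in 2 libraries of cerebellum taken at an age of 4 days from B6CASTF1/J males. The labels name 3 males in each library and number the libraries as biological replicates 1 and 2 of 1 group, with no treatment, no genetic change and no second tissue or age. These mice are hybrids of a C57BL/6J and a CAST/EiJ parent, aligned to mm10, which carries the C57BL/6J alleles. With 1 group of 2 libraries no test between conditions was possible, and all comparisons below are between these libraries or against all genes and peaks of the same libraries.

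Peak values are the authors' normalised signal, with no further unit, and the depth in reads is unknown. The longer of 2 deposited peak lists held 61896 peaks in replicate 1 and 131518 in replicate 2, and the stricter held 36611 and 79019. The median value was 0.787 in replicate 1 and 0.625 in replicate 2. Of the peaks of the longer list, 71.1% in replicate 1 and 33.4% in replicate 2 overlapped a peak of the other library by at least 1 bp. At shared peaks replicate 2 was higher by a median log2 of 0.63 (SD 0.71 over 44000 peaks) and was the higher library at 80.3% of them, so values are given per library. Of the markers of cerebellar neurons, 4 of 5 genes of granule cell progenitors, 6 of 7 of granule neurons and 5 of 6 of Purkinje cells had a promoter peak in both libraries, while Barhl1, Gabra6 and Pcp2 had none. Of the markers of GABAergic interneurons only 2 of 5 did, neither in both stricter lists, and Pax2, Ptf1a and Slc6a5 had none in either library. No promoter of 5 microglial markers was open in either library. Over all 21670 protein-coding genes, 12985 promoters were open in replicate 1, 14095 in replicate 2 and 58.9% in both. Replicate 2 had promoter peaks at 12 of 12 forebrain markers (summed value 22.5) against 5 of 12 in replicate 1 (4.61), at 7 of 7 against 3 of 7 markers of astrocytes and Bergmann glia (9.88 and 4.17), and at 4 of 5 against 0 of 5 of endothelial and mural cells (2.40 and 0; Pecam1 had none). In bulk tissue, open chromatin in fewer cells and less open chromatin per cell cannot be told apart.

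A promoter was called open where any base of a peak fell within 500 bp of the start of a protein-coding transcript. By this rule 4 of the 6 genes, Bdnf, Ntrk2, Ntrk3 and Ngfr, were open in both libraries, where 58.9% of all protein-coding genes were. In the stricter list only Bdnf and Ntrk2 of the 6 were open in both, where 52.3% of all genes were. Ntf3 was open in replicate 1 alone and Ntf5 in neither library. The 6 genes have 16 separate coding starts, of which 9 (56.2%) were open in both libraries, against 42.4% of 34077 separate starts of all genes. Of the 6 starts closed in replicate 1 and the 5 closed in replicate 2, none held an interval with a deposited FDR in its window, where 2.37% and 2.46% of all closed starts did.

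The order of the strongest promoter values was the same in both libraries for the genes open in both: Ntrk2, then Bdnf, Ntrk3 and Ngfr. Ntrk2 stood at 3.25 in replicate 1 and 6.09 in replicate 2, above the median open promoter of each library (2.11 and 4.00). The other promoters lay below that median in both libraries. Bdnf had 1.74 and 2.91, Ntrk3 0.916 and 1.64, and Ngfr 0.819 and 0.632. The ranges of neighbours in this order did not overlap. The means were 4.67 ± 2.01 for Ntrk2, 2.32 ± 0.824 for Bdnf, 1.28 ± 0.514 for Ntrk3 and 0.726 ± 0.132 for Ngfr (mean ± SD, n = 2). At each step of the order, however, the means differed by less than the 2 values of the higher gene did from each other. Replicate 2 was higher at Bdnf, Ntrk2 and Ntrk3, by log2 differences of 0.74, 0.91 and 0.84 beside a median of 1.02 over all promoters open in both. At Ngfr it was lower, with a log2 difference of -0.37, as at 7.36% of all such promoters. The order depends on the window. Within 2000 bp of a start Ngfr (2.81 and 3.11) passed Ntrk3 (0.948 and 1.89) in both libraries. Ngfr passed Bdnf in replicate 1 (1.74) but not in replicate 2 (3.95). With a peak required over the start base Ntrk3 (1.64) passed Bdnf (1.08) in replicate 2.

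**Figure D1:**
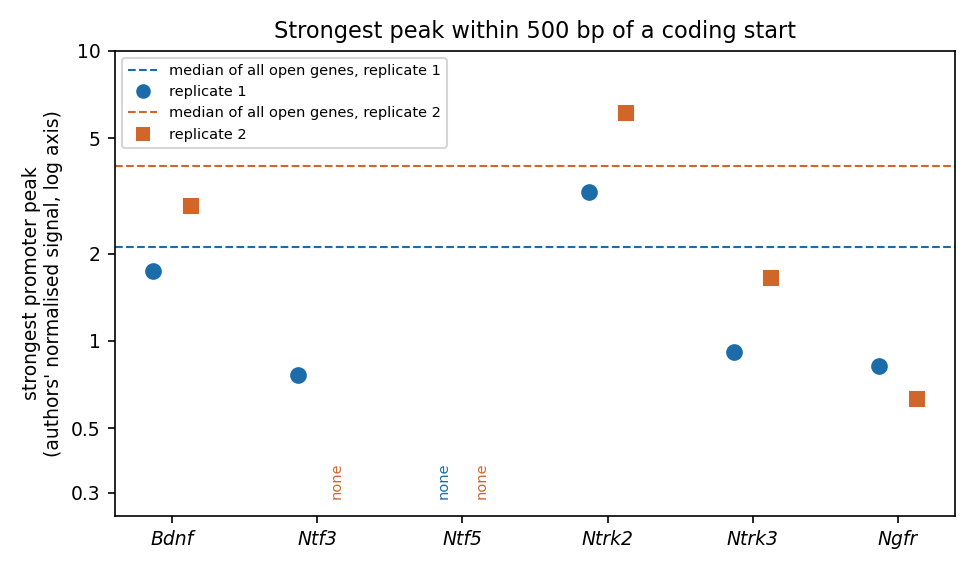
Value of the strongest peak within 500 bp of a coding start of each gene (authors' normalised signal, log axis), 1 point per library, with "none" where no peak was found and dashed lines at the median of all open promoters of each library (2.11 and 4.00). Only the Ntrk2 points lie above the line of their own library, and Ngfr is the gene open in both libraries whose replicate 2 point is the lower.

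The genes nearest to these promoters in the log2 values of both libraries were Nrg4 for Bdnf (1.75 and 2.91), R3hdm2 for Ntrk2 (3.21 and 6.06), Cebpd for Ntrk3 (0.922 and 1.68) and Wnk4 for Ngfr (0.819 and 0.639). This likeness is a distance over 2 values only.

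Bdnf spans chr2:109674700-109727007 (mm10, plus strand) and has 8 separate coding starts in the GENCODE annotation, numbered here from 5′ to 3′. Starts 1 to 4 are those known as promoters I to IV. In both libraries 5 of the 8 starts were open, and 6 other genes of the 21670 had at least as many starts open in both. That count depends on how many starts a gene has, with 34077 separate starts over all genes. It was not set against genes with as many starts as Bdnf. Neighbouring starts share peaks, since their windows overlap, so the 5 starts rest on 4 sites.

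At start 1 (109674700) replicate 1 had no peak and replicate 2 had a pair of weak ones, at 0.545 and 0.439. Start 2 (109675897) had 0.677 in replicate 1 and 0.878 in replicate 2, from a peak in its 5′ exon. Start 3 (109677032) had 0.671 and 1.17, from a peak that overlapped a 5′ exon only at its edge. The 200 bp core of that peak, chr2:109677271-109677470, lay outside annotated exons. The peaks at starts 2 and 3 were thus seen in both libraries, downstream of the start base, and in the stricter list of replicate 2 alone.

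Start 4 (109692436) is promoter IV, known as the Bdnf promoter most responsive to neuronal activity through calcium response elements and CREB. It had a peak of 1.08 in replicate 2, chr2:109692341-109692540, which covered the start base, passed the stricter list and had a lowest deposited FDR of 2.10e-09. Replicate 1 had no peak there and no interval with a deposited FDR in the window. The site is therefore open in replicate 2 alone, the library with the wider set of peaks and with all forebrain markers open. The part of these differences in the promoter IV result was not tested.

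Around starts 5, 6 and 7 (109693027, 109693563 and 109694409) both libraries had a peak in chr2:109693301-109694000, at 0.652 in replicate 1 and 0.785 in replicate 2, over the 5′ exon of start 6. The values credited to start 7, 1.74 and 2.91, come from a peak at chr2:109694921-109695120. Its centre lies in the intron, 552 bp after the later (109694469) of 2 transcript starts grouped as start 7. The peak reaches within 500 bp of that start alone, so the highest Bdnf promoter value does not lie on a start base. In a window on the RefSeq start at 109694409 alone, the strongest peak was 0.574 in replicate 1 and none was found in replicate 2. Start 8 (109709383), and a RefSeq start at 109722921 that lies 13538 bp from the nearest of the 8, had no peak in either library.

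The highest Bdnf value in replicate 2 lay at no start. An intronic site at chr2:109678041-109678380, 1178 bp after start 3, had 1.28 in replicate 1 and 3.95 in replicate 2 (2.61 ± 1.89, mean ± SD, n = 2), passed the stricter list in both libraries and held 2 footprints in replicate 1 and 7 in replicate 2. In replicate 1 it ranked below the site after start 7, so the order of the 2 strongest Bdnf sites differed between the libraries. Between start 3 and this site lay a weaker shared peak, at 0.497 and 0.659. Replicate 2 had a further intronic peak of 0.392 and downstream peaks of 0.479 and 0.220, with none in replicate 1.

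In all, the Bdnf locus with 50 kb on either side held 12 sites, of which 6 were open in both libraries, 6 in replicate 2 alone and 0 in replicate 1 alone. Of the 6 shared sites, all 6 were higher in replicate 2. Of the 12 sites, 7 lay within 500 bp of a Bdnf start and 5 away from them, 3 of these in the intron after start 3 and 2 downstream of the gene.

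Sequences of 3 Bdnf sites follow, since they hold the strongest peaks and promoter IV. They are the reference letters of GRCm38.p6, the mm10 assembly, with the authors' footprints of either library in capitals (stretches protected from DNase I inside open DNA). The promoter IV stretch ends at the base before the start.
Bdnf promoter IV, chr2:109692341-109692435, plus strand: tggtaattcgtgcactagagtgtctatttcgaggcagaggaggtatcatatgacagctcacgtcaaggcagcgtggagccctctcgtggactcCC
Bdnf intron after start 3, chr2:109678131-109678330, plus strand: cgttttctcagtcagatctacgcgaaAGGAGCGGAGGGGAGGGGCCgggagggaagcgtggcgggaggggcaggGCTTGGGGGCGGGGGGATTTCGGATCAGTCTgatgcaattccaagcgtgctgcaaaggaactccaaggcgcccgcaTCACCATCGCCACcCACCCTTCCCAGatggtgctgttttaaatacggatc
Bdnf intron after start 7, chr2:109694921-109695120, plus strand: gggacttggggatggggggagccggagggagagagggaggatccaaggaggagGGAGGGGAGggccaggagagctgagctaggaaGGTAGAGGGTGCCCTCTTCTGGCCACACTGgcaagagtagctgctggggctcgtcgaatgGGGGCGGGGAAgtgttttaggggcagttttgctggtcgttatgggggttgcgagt

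The promoter IV stretch holds the CREB core TGACG on the minus strand, read as CGTCA in the printed strand, at chr2:109692401-109692405, with no footprint over it in either library. It also holds a match to a 12-letter CTCF consensus on the minus strand, at chr2:109692418-109692429, likewise with no footprint over it. Replicate 1 had no peak at this site. TGACG was found on either strand in 15.9% of the 200 bp cores of the 44000 shared peaks. In the intron after start 3, the SP/KLF core GGGCGG lay under footprints of both libraries, and 33.3% of shared cores held GGGCGG. After start 7, footprints of both libraries covered a match to the 12-letter CTCF consensus, which 15.4% of shared cores held. A motif is called under a footprint where the 2 share at least 1 base, and each match is of letters only and shows no bound protein.

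**Figure D2:**
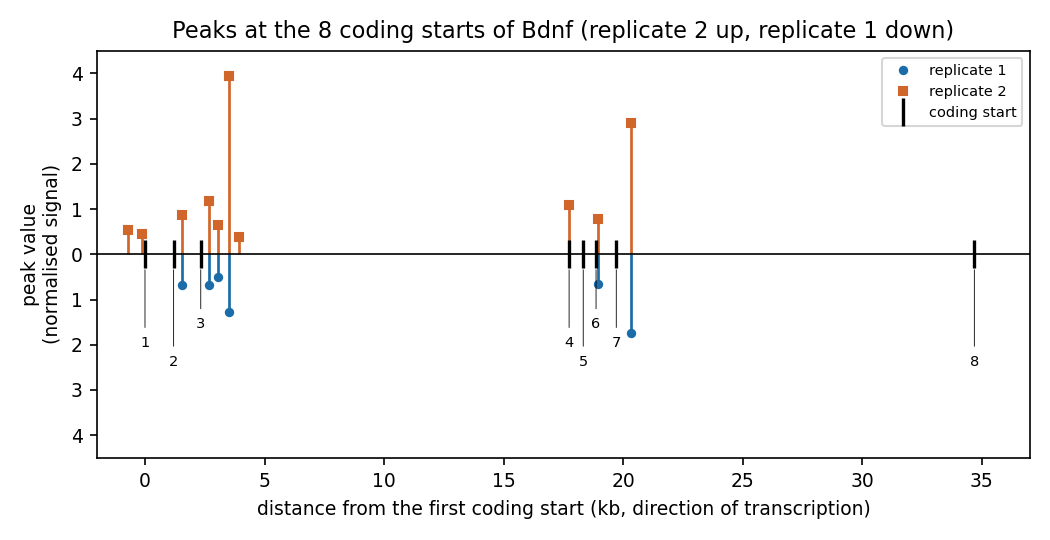
Peaks of Bdnf by distance from its first coding start in kb (x axis), with the value (authors' normalised signal) of replicate 2 drawn upwards and of replicate 1 downwards from 0, and ticks 1 to 8 at the coding starts. The tallest peaks, 3.95 in replicate 2 and 1.74 in replicate 1, stand downstream of starts 3 and 7, and start 4 has a peak in replicate 2 alone.

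Ntf3, at chr6:126101412-126166910 on the minus strand, has 2 coding starts. Start 1 (126166910) had no peak within 500 bp in either library. Start 2 (126164960) had a peak of 0.761 in replicate 1, chr6:126164924-126165121, covering the start base, and none in replicate 2. It is the only start of the 6 genes open in replicate 1 alone, its lowest deposited FDR was 0.00241, and it was not in the stricter list.

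The strongest Ntf3 site was in the other library and outside the window. It lay 1080 bp upstream of start 1, chr6:126167901-126168080, at 2.17 in replicate 2 with none in replicate 1. Of 8 sites at the locus, a single intronic site far into the gene, chr6:126106501-126106720, was open in both, at 0.600 and 1.11. The other 5 were in replicate 2 alone. An upstream site had 0.299, a pair of intronic sites 0.592 and 0.625, and a pair of downstream sites 0.452 and 0.333. The locus held 0.604 shared peaks per 100 kb, at the 15.7 percentile of all genes, whose median was 3.10. Both upstream stretches are printed in the direction of transcription, since each was open in a different library.
Ntf3 start 2, chr6:126164961-126165122, minus strand: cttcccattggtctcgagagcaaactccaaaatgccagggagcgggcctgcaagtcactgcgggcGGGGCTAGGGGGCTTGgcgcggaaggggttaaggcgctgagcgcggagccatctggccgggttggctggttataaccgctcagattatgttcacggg
Ntf3 upstream of start 1, chr6:126167891-126168090, minus strand: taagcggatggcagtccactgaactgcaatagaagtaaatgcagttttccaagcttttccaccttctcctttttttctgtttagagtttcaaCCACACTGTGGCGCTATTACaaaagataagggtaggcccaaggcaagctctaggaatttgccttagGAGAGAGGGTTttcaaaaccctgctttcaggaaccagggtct

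The start 2 stretch holds GGGCGG and the CTCF core AGGGGGC, both under the single footprint of replicate 1. AGGGGGC was present in 14.4% of shared cores.

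Ntf5, which encodes neurotrophin-4, lies at chr7:45413695-45417179 on the plus strand. In neither library did it have a peak at its start or in its body, or a footprint within 500 bp of its start. The surrounding 103.5 kb was dense in peaks, with 31 sites, 10 of them open in both libraries, or 9.66 shared peaks per 100 kb (93.8 percentile of all genes). Of these 31 sites, 14 lay at coding starts of neighbouring genes. The strongest were at Snrnp70, a splicing factor gene, with 8.01 and 21.7, and at the start region between Ruvbl2 and Gys1, with 6.92 and 21.5. Those at Ppfia3 had up to 5.24 and 11.5, at Bax up to 3.22 and 8.24, and at Ftl1 up to 2.83 and 10.6. The nearest peak on the upstream side, at Kcna7, a potassium channel gene 8446 bp away, had 1.08 and 0.998. Ntf5 thus had no peak of its own, while neighbours on both sides had peaks at coding starts. Coding starts of neighbours without a peak were not counted.

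In replicate 1 alone, 11 weak peaks of 0.148 to 0.368 lay over the bodies of Ruvbl2 and Gys1, within 20.4 kb, with 0 footprints. Of all 61896 peaks of replicate 1, 12390 were below 0.4, and 11266 of these weak peaks were not shared.

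Ntrk2, the TrkB gene, spans chr13:58806569-59133970 on the plus strand, 327.4 kb long, and was the only one of the 6 open over a start base in both libraries. Start 1 (58806569) carried the strongest promoter peak, at the 94.0 percentile of all replicate 1 peaks and the 96.4 of replicate 2. Its 2 values, 3.25 and 6.09, gave 4.67 ± 2.01 (mean ± SD, n = 2). The peak held 2 footprints in replicate 1 and 4 in replicate 2, of which 2 overlapped. Start 2, a group of transcript starts from 58807697 to 58808691, had 1.25 and 4.09, and a further peak over a coding exon at 1.05 and 1.44. All 3 promoter peaks were thus in both libraries and higher in replicate 2.

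Away from the starts, 29 further sites lay in the gene and its flanks, of which 7 were open in both libraries and 22 in replicate 2 alone. Of the 5 strongest shared distal sites, 4 lay more than 200 kb after start 1. An intronic site 267192 bp after start 1, chr13:59073661-59073860, had 1.74 and 3.01. A downstream site at chr13:59145781-59145960 had 1.29 in replicate 1 and 7.45 in replicate 2, above the promoter in replicate 2 and well below it in replicate 1. The genes Gm34307 and Gm34354 overlap this site, and the nearest coding start is that of Agtpbp1, 328710 bp away. With a log2 difference of 2.53, the downstream site differed most between the libraries among the 44 shared sites of the 6 genes.

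An intronic site at chr13:59092781-59093000 had 1.15 and 4.00. The remaining 2 lay 205082 bp into the gene, at 1.05 and 1.98, and near the promoter, 3482 bp after start 1 and 1360 bp after the last start of the start 2 group, at 0.761 and 1.26. All 5 were higher in replicate 2, and the single shared Ntrk2 site that was lower there was an intronic site with 0.716 and 0.512. The 22 sites of replicate 2 alone ran from 0.426 to 2.94 with a median of 0.812. The highest, an intronic peak at chr13:59041001-59041180, was chosen for mention after its value was seen.

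The promoter stretch outside annotated exons and the 3 strongest distal sites by value in replicate 2 are printed below. The downstream site and the site named 267 kb, which the gene 4930415C11Rik overlaps, are shown only in the part outside annotated exons.
Ntrk2 start 1, chr13:58806431-58806471, plus strand: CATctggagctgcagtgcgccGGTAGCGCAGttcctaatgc
Ntrk2 downstream, chr13:59145836-59145872, plus strand: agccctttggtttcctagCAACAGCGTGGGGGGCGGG
Ntrk2 intron, 286 kb, chr13:59092781-59092980, plus strand: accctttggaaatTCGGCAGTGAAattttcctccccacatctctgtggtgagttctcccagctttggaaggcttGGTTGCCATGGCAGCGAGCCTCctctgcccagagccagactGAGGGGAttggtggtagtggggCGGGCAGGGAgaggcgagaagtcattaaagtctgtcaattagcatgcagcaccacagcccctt
Ntrk2 intron, 267 kb, chr13:59073715-59073870, plus strand: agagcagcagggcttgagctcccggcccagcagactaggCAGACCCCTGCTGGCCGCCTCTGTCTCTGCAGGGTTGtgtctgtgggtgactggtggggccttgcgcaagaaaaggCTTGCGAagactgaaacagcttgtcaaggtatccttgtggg

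In the stretch named 286 kb, footprints of both libraries covered GTTGCC, a core of RFX motifs that 4398 of the 44000 shared cores held. In the stretch named 267 kb they covered CAGCAGG on the minus strand, a ZIC motif present in 12.5% of shared cores. The downstream stretch had GGGCGG under footprints of both libraries.

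Ntrk3, the TrkC gene, spans chr7:78175959-78738012 on the minus strand, 562.1 kb long. Its first coding start (78657724) had no peak within 500 bp in either library, and the nearest site, 586 bp upstream, had 0.600 in replicate 1 and 0.259 in replicate 2. Start 2, a group of transcript starts from 78578408 to 78577783, had 0.916 from 1 peak in replicate 1 and 1.64 as the strongest of 4 peaks in replicate 2. The replicate 1 value was not in its stricter list. The 1.64 came from a site without a replicate 1 peak, and at the site shared by both libraries replicate 2 had 1.38.

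The strongest site of the Ntrk3 locus was distal and close in value in both libraries. It lay 108776 bp upstream of start 1, chr7:78766401-78766600, with 3.95 and 4.88 (4.42 ± 0.661, mean ± SD, n = 2), 4 footprints in each library and all 4 overlapping. This site is outside the gene body, and the nearest coding start is that of Mrpl46, 16588 bp away. Of the other strong shared distal sites, an intronic one at chr7:78568981-78569180 had 1.61 and 1.73, and chr7:78267581-78267740 had 1.41 and 2.06. A site at chr7:78596001-78596186 had 1.23 and 1.68, and a UTR site near the end of the gene, chr7:78191021-78191260, had 0.922 and 2.22. All 5 were higher in replicate 2.

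Replicate 2 was lower at 2 shared Ntrk3 sites, the weak one near start 1 and an intronic site with 1.08 and 0.612. Of 47 sites at the locus, 11 were open in both libraries and 36 in replicate 2 alone, the latter from 0.240 to 1.89 with a median of 0.532. Outside the gene, a site 125356 bp upstream of start 1 belonged to the start region of Mrpl46 and Mrps11, genes of the mitochondrial ribosome, with 1.72 and 3.96. The strongest upstream site and the strongest shared intronic site by mean rank over the libraries are printed in the direction of Ntrk3.
Ntrk3 upstream, 109 kb, chr7:78766381-78766580, minus strand: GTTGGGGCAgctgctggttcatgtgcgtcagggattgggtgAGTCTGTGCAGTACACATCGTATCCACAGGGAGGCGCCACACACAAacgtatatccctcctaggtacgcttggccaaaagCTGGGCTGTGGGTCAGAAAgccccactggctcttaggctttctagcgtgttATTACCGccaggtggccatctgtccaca
Ntrk3 intron, 88.6 kb, chr7:78568971-78569170, minus strand: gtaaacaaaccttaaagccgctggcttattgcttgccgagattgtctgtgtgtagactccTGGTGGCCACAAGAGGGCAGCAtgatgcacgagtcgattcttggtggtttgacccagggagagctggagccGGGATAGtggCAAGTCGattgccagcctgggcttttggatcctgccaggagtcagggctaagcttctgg

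The upstream stretch holds the E-box CAGCTG, which 16.2% of shared cores held, under a footprint in each library. The intronic stretch has a match to the 12-letter CTCF consensus on the minus strand under footprints of both libraries, inside the longest run of capitals.

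**Figure D3:**
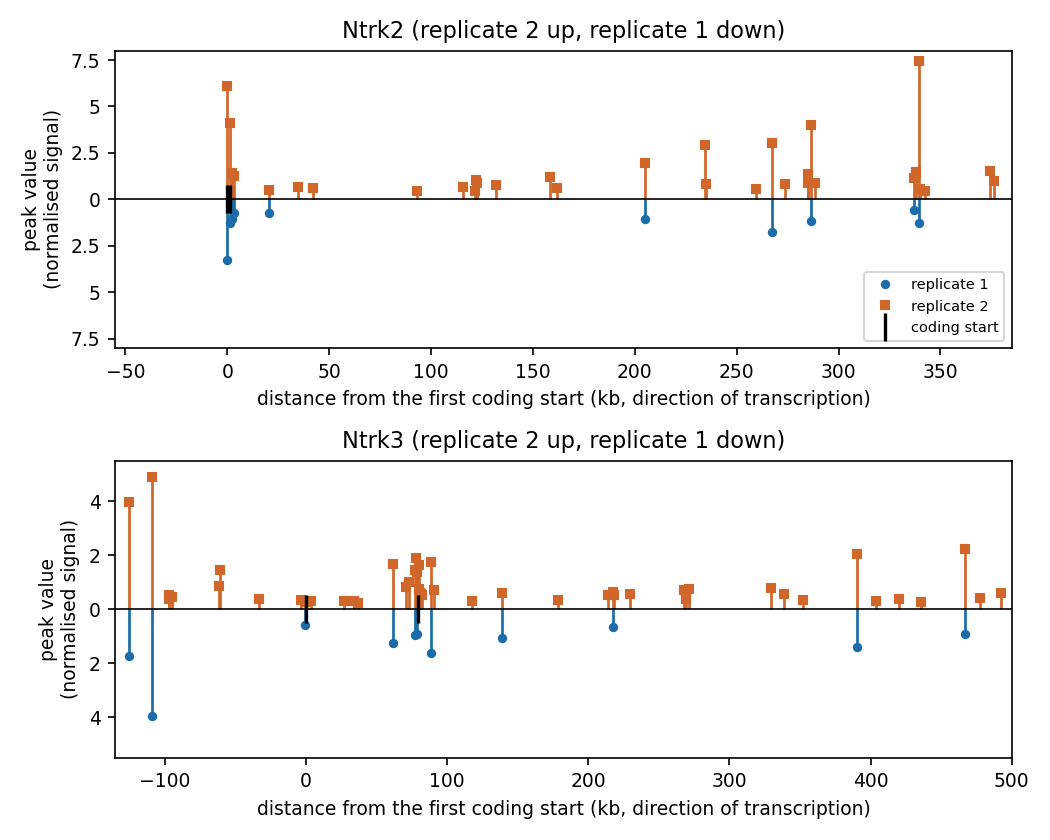
Peaks of Ntrk2 (top) and Ntrk3 (bottom) by distance from the first coding start in kb (x axis), with the value (authors' normalised signal) of replicate 2 drawn upwards and of replicate 1 downwards from 0, and black ticks at the coding starts. Ntrk2 has its highest replicate 1 peak at the start (3.25) and Ntrk3 at 109 kb upstream (3.95), and most sites have a replicate 2 peak alone.

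Ngfr, the p75 gene, spans chr11:95568818-95587735 on the minus strand and has 1 coding start. The peak at the start had 0.819 in replicate 1 and 0.632 in replicate 2, with lowest FDRs of 0.0125 and 0.00412, and was in neither stricter list. In replicate 1 it lay beside the start base, in replicate 2 over it.

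The main Ngfr site near the start was intronic. At 1334 bp after the start, chr11:95586301-95586500, it had 2.81 and 3.11 (2.96 ± 0.217, mean ± SD, n = 2), with 3 footprints in replicate 1 and 4 in replicate 2, and it passed both stricter lists. With a window of 2000 bp in place of 500 bp, this site would give the promoter value. A coding exon site had 0.935 and 0.772, and an intronic peak of 1.04 was found in replicate 2 alone. The Ngfr body thus holds 1 strong site, at nearly the same value in both libraries.

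A group of 3 shared sites lay downstream, nearer to the start of Nxph3, which encodes a neurexophilin, than to that of Ngfr. The strongest, chr11:95533861-95534040, had 5.02 in replicate 1 and 4.34 in replicate 2, at the 98.9 and 93.9 percentiles of their peaks, and lies 53784 bp past the Ngfr start and 19380 bp from that of Nxph3. The other 2 had 2.54 and 3.92, and 1.47 and 3.15. Of the 6 shared Ngfr sites, 3 were higher in replicate 2, with a median log2 difference of -0.03.

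Upstream of Ngfr, 9 weak peaks of 0.0774 to 0.264 were found in replicate 1 alone within chr11:95601521-95626540, some of them in the noncoding gene Gm11528, 8 of the 9 without a footprint and with lowest FDRs from 5.14e-14 to 0.00911. In the same stretch replicate 2 alone had a peak of 1.02 and a peak of 0.765. At the first of these replicate 1 had 3 footprints and a lowest deposited FDR of 4.29e-26, but no peak. No weak upstream peak was thus shared. The intronic and the downstream site are printed on the minus strand.
Ngfr intron, chr11:95586301-95586500, minus strand: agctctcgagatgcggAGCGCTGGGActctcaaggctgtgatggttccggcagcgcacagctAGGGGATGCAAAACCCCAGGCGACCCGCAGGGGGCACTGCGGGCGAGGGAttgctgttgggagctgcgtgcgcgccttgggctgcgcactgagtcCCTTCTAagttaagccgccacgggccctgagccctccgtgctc
Ngfr downstream, chr11:95533851-95534050, minus strand: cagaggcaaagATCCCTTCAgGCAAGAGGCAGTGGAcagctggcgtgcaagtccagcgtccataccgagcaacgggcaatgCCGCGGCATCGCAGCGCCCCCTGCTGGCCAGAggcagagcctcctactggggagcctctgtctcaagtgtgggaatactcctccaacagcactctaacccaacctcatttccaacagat

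In both stretches AGGGGGC lay under footprints of both libraries. In the downstream stretch it is on the plus strand, read as GCCCCCT in the printed strand, and overlaps a 12-letter CTCF match and CAGCAGG. Matches to either CTCF motif under footprints of both libraries were found at 6 of the 26 shared sites away from coding starts (23.1%), against 25.3% of 26385 shared peaks away from coding starts genome-wide, so this share was near the background.

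Over the 6 loci, 148 sites were found, of which 44 were open in both libraries, 23 in replicate 1 alone and 81 in replicate 2 alone. All 23 of the replicate 1 sites lay at Ntf5 (13), Ngfr (9) and Ntf3 (1), and none at Bdnf, Ntrk2 or Ntrk3. Of the 68 peaks of replicate 1 and 127 of replicate 2, 45 (66.2%) and 45 (35.4%) were shared, near the genome-wide shares given above. Replicate 2 was higher at 37 of the 44 shared sites, with a median log2 difference of 0.64.

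Shared peaks per 100 kb stood at 4.6 for Bdnf, 2.34 for Ntrk2, 1.66 for Ntrk3 and 5.05 for Ngfr, at the 66.4, 39.3, 29.3 and 71.1 percentiles of all genes, within the middle range of all genes (1.27 to 5.56, 25 to 75 percentiles). Of the 44 shared sites, 42 had a footprint in replicate 1, 41 in replicate 2 and 30 a pair that overlapped. These counts of sites were not set against those of all shared peaks. The loci held 119 footprints in replicate 1, of which 71 overlapped a footprint of replicate 2, and 308 in replicate 2, of which 63 overlapped. Over the genome 56.3% of replicate 1 footprints and 23.3% of replicate 2 footprints did.

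**Figure D4:**
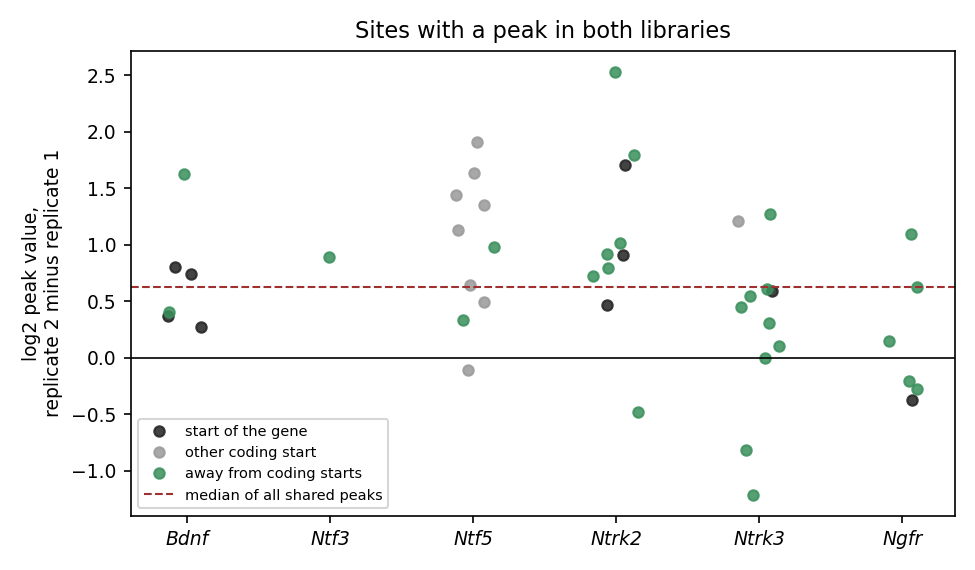
Log2 difference of the peak value, replicate 2 minus replicate 1, at each site open in both libraries, by gene, coloured by position, with a dashed line at the median of all shared peaks (0.63). Points for Ntf5 are mostly starts of neighbouring genes. Ntrk2 has the highest point (2.53), and Ngfr is centred near 0.

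Of 48 other genes of the neurotrophin pathway, 47 had a promoter peak in both libraries and 38 in both stricter lists, and the remaining gene, Furin, was open in replicate 2 alone.

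Of genes that act in neurotrophin processing and release, 4 of 5 were open in both libraries. The strongest were Plat, the gene of tissue plasminogen activator, which activates the protease that cuts proBDNF (2.10 and 5.12), and Pcsk2, a prohormone convertase (1.47 and 2.98). Furin, a convertase of the secretory pathway, had 2.41 in replicate 2 and none in replicate 1. Like promoter IV of Bdnf, it was open in the library with the wider peak set, and the part of that was not tested. All 9 partners of p75 and sortilin family genes were open in both, led by mean rank over the libraries by Sort1, the gene of sortilin (2.48 and 7.20), and Sorcs2 (2.84 and 3.58). Sorcs2 was the highest of the 9 in replicate 1 but lay below Sort1, Maged1 (5.63) and Nradd (4.26) in replicate 2.

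Every gene of 21 Trk adaptors and proximal signalling genes was open in both libraries, led by Map2k1, the kinase MEK1 (6.12 and 13.7), and the adaptor Grb2 (5.45 and 14.5). All 13 genes of transcription factors reported to act on Bdnf were open in both, led by Creb1 (5.04 and 12.8) and its coactivator Crtc1 (4.11 and 10.3). Many of these genes are broadly active, and 58.9% of all genes were open in both libraries by the same rule.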

How the data were processed

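DNase-seq of cerebellum was deposited as 2 libraries of 1 group, mapped to groups from their labels. Peak values are the deposited signal, from peaks called per library on mm10, which the authors normalised in a way not given in the sources used here. A deposited FDR of the cut rate is a q-value per short interval, listed only under 0.05. The value in the deposited footprint files is the same on every line, so positions alone were used. The software behind alignment and calling is likewise not given there. The description files entered no calculation. Depth in reads is unknown, so no counting interval is given.

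The longer peak list was used, the stricter as an alternative. Genes and starts came from GENCODE M21, with starts of a gene within 500 bp joined (Bdnf apart by first exon). Loci were gene bodies with 50000 bp on either side, and overlapping peaks of both libraries were joined into a site. RefSeq starts were available for Bdnf, Ntf3, Ngfr and Ntrk2. The Ngfr start lay 37 bp from the nearest GENCODE start, 1 Ntf3 start 29 bp and 1 Bdnf start 13538 bp. The other RefSeq starts coincided with a GENCODE start. The named genes were all 6 members with every coding start, every locus peak where a gene has 10 or fewer sites and otherwise the 5 strongest shared, and of each pathway list the 2 strongest genes and those closed in a library. Some pathway genes are not reported here. Members and lists were chosen with earlier results of these data known. Overlap counting was tested on simulated intervals. Python 3.11.15, pandas 2.3.3, numpy 2.4.6 and pyfaidx 0.9.0.4 were used. The labels give both libraries the same donor entry and do not say whether the 3 males of a library were pooled or shared, so the spread between the libraries may be in part technical.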

Additional observations from a re-analysis of the deposited data

How the results depend on the processing

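Of 39 alternative values of the 6 counts and medians, 26 stayed within 1.5 times the reported count or within the spread of the reported median. The 4 genes open in both libraries became 2 in the stricter list, 1 with a peak required over the start base and 2 at the most 5′ start. They became 5 with a window of 2000 bp, which takes in the Ntf3 site 1080 bp upstream of start 1, and 4 to 5 with either library alone. The 9 open starts became 3 in the stricter list, 2 over the start base and 14 with a window of 2000 bp, and 10 to 11 with either library alone. The 45 shared locus peaks became 29 in the stricter list, beside 68 to 127 peaks in either library alone. The 71 overlapping footprints became 5 with identical ends and 24 with flanks of 10000 bp, beside 119 to 308 in either library alone. The pathway count (33 to 48) and the median log2 difference of shared peaks (0.51 to 0.96) did not move by these limits under any alternative run. The cause of these changes was not tested, apart from the alternatives' own construction, which removes or adds peaks. No paired analysis was possible because there is 1 group of 2 libraries. Without read totals, a missing peak shows only that the lists used here hold none.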
